A study of Mus musculus with 12 samples.

Results

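The transcripts described here encode 10 factors of the AP-1 group in mouse splenic B cells, the FOS factors (Fos, Fosb, Fosl1, Fosl2), the JUN factors (Jun, Junb, Jund) and the related factors Batf, Batf3 and Atf3. They were chosen by name, with earlier results of these data known. They are the rows of the count table whose Ensembl identifier belongs to these 10 symbols, among 37991 identifiers in all. All 10 passed the filter on low counts, with 13538 genes tested. Poly(A) RNA was sequenced from splenic B cells of 8-week-old mice in 4 groups of 3 libraries each, so 12 libraries in all. Cre-only mice carried the CD23-iCre transgene, whose CD23 promoter turns on in transitional B cells, and Runx1 c-k/o mice carried the same transgene with a floxed Runx1 from which it removed exon 4, so the control cells also express Cre. Each genotype was sampled as resting B cells (0 h) and after 3 h with anti-IgM, which crosslinks the B cell receptor, together with IL-4. No library of cells kept for 3 h without stimulus is among the 12, so a change with anti-IgM and IL-4 and a change with time in culture cannot be told apart here, and "activation" below means the difference between the 3-h and the resting libraries. Whether each library came from a different mouse or a pool is not stated, so p-values measure the spread between these libraries.

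AP-1 is a family of basic leucine zipper (bZIP) proteins that bind DNA as dimers. FOS factors cannot pair with themselves and bind together with a JUN factor, whereas JUN factors can pair with each other as well. BATF, BATF3 and ATF3 also pair with JUN factors, and BATF with a JUN partner binds composite sites next to IRF4 or IRF8 in lymphocytes. Fos, Fosb, Jun, Junb and Atf3 are immediate early genes, whose transcripts rise within minutes of a signal through MAP kinases and are short-lived, and they are also known to be induced when tissue is dissociated. RUNX1 is a DNA-binding factor that works with CBFB and cooperates with AP-1 and ETS factors at many lymphoid enhancers.

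Total counts ran from 14442251 to 23641552 per library, and 3 counts corresponded to 0.127 to 0.208 CPM (counts divided by the library's total and brought to a common scale), a floor that covers counting error only. Summed B cell markers (8 of 8 tested, Cd79a and Pax5 among them) lay between 14585 and 17669 normalized CPM at rest and between 7065 and 8189 at 3 h. These markers did not move alike. In Cre-only cells the mean of Ighm went from 7192 to 2580, and Cd79a, Cd79b, Ms4a1, Pax5 and Cd22 were also lower at 3 h. Fcer2a was at 1097 and 1116, and Cr2 rose from 945 to 2021. T cell markers summed to at most 9.35 and NK cell markers to at most 5.84. Dendritic cell markers summed to between 29.5 and 39.1 over all 12 libraries, but the single markers moved in opposite directions. From rest to 3 h in Cre-only cells, the means of Zbtb46 (1.45 to 17.8) and Itgax (8.59 to 9.37) rose. Those of Flt3 (16.5 to 6.14), Xcr1 (2.24 to 0.684), Clec9a (0.890 to 0.201), Siglech (2.17 to 1.51) and Clec10a (0.432 to 0.151) fell. Myeloid markers, led by Csf1r, summed to between 213 and 417 at rest and between 17.6 and 46.5 at 3 h. Plasma cell markers (4 of 4 tested) summed to between 165 and 401 at rest. Red cell markers (4 of 4) summed to between 36.1 and 253 in resting Cre-only and between 246 and 409.7 in resting Runx1 c-k/o libraries, and platelet markers to between 3.11 and 12.8 over all libraries. The part of other cell types in the AP-1 levels was not tested. In bulk RNA, fewer cells of a type and less RNA per cell cannot be told apart. Runx1 counts came from the whole gene and therefore did not check the deletion of exon 4. Before activation the 3 Cre-only libraries held Runx1 at 83.6, 81.8 and 86.7 normalized CPM and the 3 Runx1 c-k/o libraries at 101, 95.7 and 103. At 3 h the Cre-only libraries were at 38.5, 37.0 and 34.9 and the Runx1 c-k/o libraries at 47.3, 70.6 and 74.5, so every Runx1 c-k/o library was the higher at either time.

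The libraries of Runx1 c-k/o replicate 2 stood apart at both times, and this touches several AP-1 genes. Among 130 genes outside the AP-1 list that fell by more than 5 on the log2 scale in Cre-only cells, the 3-h Runx1 c-k/o replicate 2 library was the highest of its group in 112, with a summed level of 650.1 normalized CPM against 149 to 176 in the other 3-h libraries. Among 26 genes that rose by more than 5, the resting Runx1 c-k/o replicate 2 library was the highest of its group in 26, with 252 against 27.6 to 34.6 in the other resting libraries. The 3-h Runx1 c-k/o replicate 1 library also differed from its group, with a chi-square per degree of freedom of 84.7 against replicate 3, where pairs of Cre-only replicates gave 3.31 to 5.95. No library was a copy of another. Several of the results below are therefore also given without 1 or more of these libraries.

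**Figure D1:**
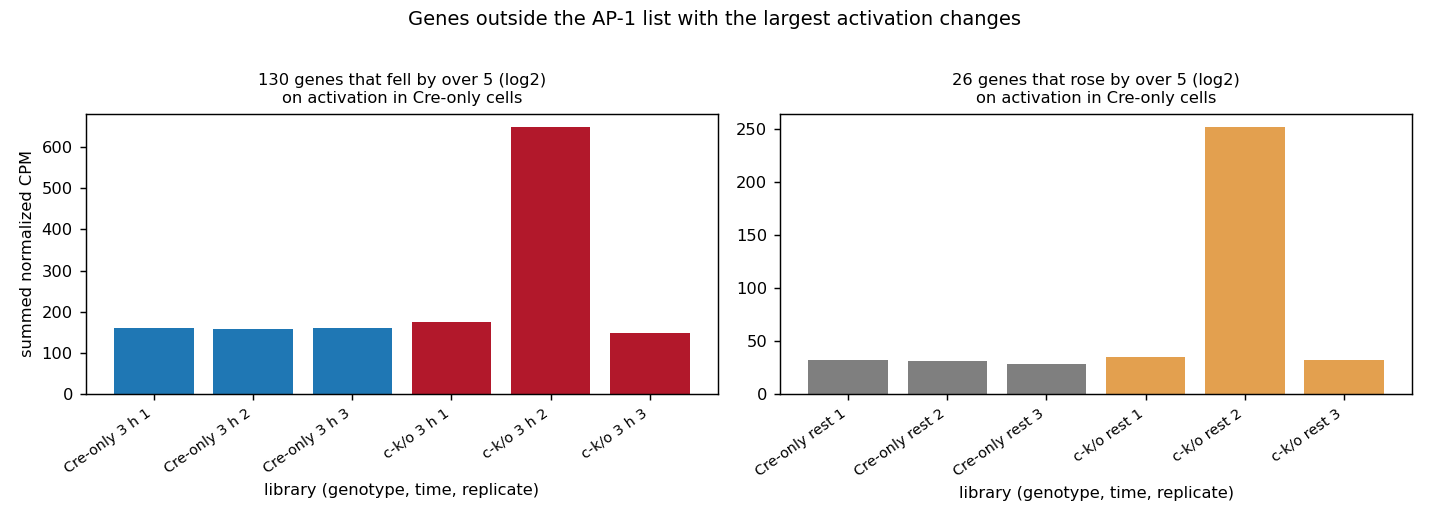
Summed normalized CPM (linear axis) of 130 genes that fell (left, 6 libraries at 3 h) and of 26 genes that rose (right, 6 resting libraries) by more than 5 on the log2 scale with activation in Cre-only cells, with 1 bar for each library. The replicate 2 library of Runx1 c-k/o cells was highest in each panel, at 650.1 and 252.

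The promoters of Fos and Fosb, the 2 members that fell most, and of Batf, a member that rose, are shown because they lie at the starts of the transcripts with the largest falls and of the only member whose window held a RUNX core. Sequences are from RefSeq (GRCm38.p6) and each was found once, base for base, in NCBIM37 (mm9), the build of the counts, which gives the coordinates. Of the 10 members, 9 had a promoter in that table (not Fosl1). Each window holds the bases before the annotated start, 5′ to 3′ along the gene's strand, at chr12:86814590-86814839 (+) for Fos, chr7:19895395-19895644 (-) for Fosb and chr12:87027420-87027618 (+) for Batf, and capitals mark TGACG, the first bases of the cAMP response element TGACGTCA, and TGTGGT, a core read by RUNX factors.
Fos: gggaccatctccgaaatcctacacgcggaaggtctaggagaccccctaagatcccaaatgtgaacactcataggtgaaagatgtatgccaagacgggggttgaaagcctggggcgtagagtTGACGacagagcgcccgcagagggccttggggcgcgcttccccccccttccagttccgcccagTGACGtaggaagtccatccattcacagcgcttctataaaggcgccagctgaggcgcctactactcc
Fosb: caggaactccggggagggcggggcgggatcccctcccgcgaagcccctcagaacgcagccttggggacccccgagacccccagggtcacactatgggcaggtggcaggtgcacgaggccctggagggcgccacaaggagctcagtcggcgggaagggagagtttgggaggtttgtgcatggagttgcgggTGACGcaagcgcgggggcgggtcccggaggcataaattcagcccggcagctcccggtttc
Batf: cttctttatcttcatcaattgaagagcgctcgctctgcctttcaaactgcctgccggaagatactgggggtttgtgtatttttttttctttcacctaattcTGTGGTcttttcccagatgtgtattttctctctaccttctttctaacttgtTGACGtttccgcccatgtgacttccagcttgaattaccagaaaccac
TGACG, searched on both strands in the 250 bases before the RefSeq start, was in 5 of the 9 member promoters (Fos, Fosb, Junb, Batf, Atf3) and in 17.8% of all 32851 promoters of this length. The GC content of these 5 windows was 58.4%, 68.8%, 66.4%, 46.4% and 65.2% in the same order. Its median over all promoters was 52.4%, and the shares were not matched for it. TGTGGT was in 1 of the 9, Batf, on both strands, the other match lying at -56 to -51 from the RefSeq start and ending past the bases shown, and in 14% of all promoters. TGCGGT (5.1% of all), TGANTCA, the AP-1 element (6.75%), TGACGTCA (1.55%), and the CArG box read by SRF (1.47%) were in 0 of the 9. TGACG lies within TGACGTCA. These matches describe letters in a short window only.

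In resting Cre-only B cells 6 of the 10 genes were abundant and the others were low. Per kilobase of exon, the measure used for levels between genes, Junb stood at 599 ± 60.1 CPM per kb (SD, n = 3) and Fosb at 548 ± 24, ranks 69 and 74 of 13514 genes with a length. Samples of these 2 overlapped, whereas Fos (361 ± 30.5), Jund (215 ± 19.3), Jun (150.3 ± 24.5) and Atf3 (116 ± 8.65) followed with no overlap between neighbours. Batf (11.6 ± 1.02), which serves as a JUN partner in activated lymphocytes, came next. Fosl2 (3.91 ± 0.166), Batf3 (0.667 ± 0.289) and Fosl1 (0.0902 ± 0.0550) were the lowest. Runx1 c-k/o cells had the same order at rest, with Junb at 663 ± 80.2 and Fosl1 at 0.210 ± 0.117, and there Fos overlapped Jund and Jun overlapped Atf3.

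At 3 h the order was different. In Cre-only cells Batf was highest at 117 ± 5.03 CPM per kb, with no overlap with Junb at 90.2 ± 12.5. Fosl2 (23.6 ± 3.11), Atf3 (19.3 ± 2.62) and Jund (16.7 ± 1.76) overlapped from neighbour to neighbour. Jun (3.47 ± 0.410) followed. Fos (1.37 ± 0.144), Fosl1 (1.08 ± 0.333) and Fosb (0.765 ± 0.0873) came after it, also overlapping from neighbour to neighbour, and Batf3 was at 0.101 ± 0.0177. The 10 genes summed to 2005 ± 145 CPM per kb at rest and 273 ± 21.4 at 3 h in Cre-only cells, while the Runx1 c-k/o sums were 2164 ± 99.6 and 468 ± 92.9. All levels are relative to the scaled total of each library. The counts held no spike-in rows, so changes in RNA per cell between rest and 3 h were not measured.

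**Figure D2:**
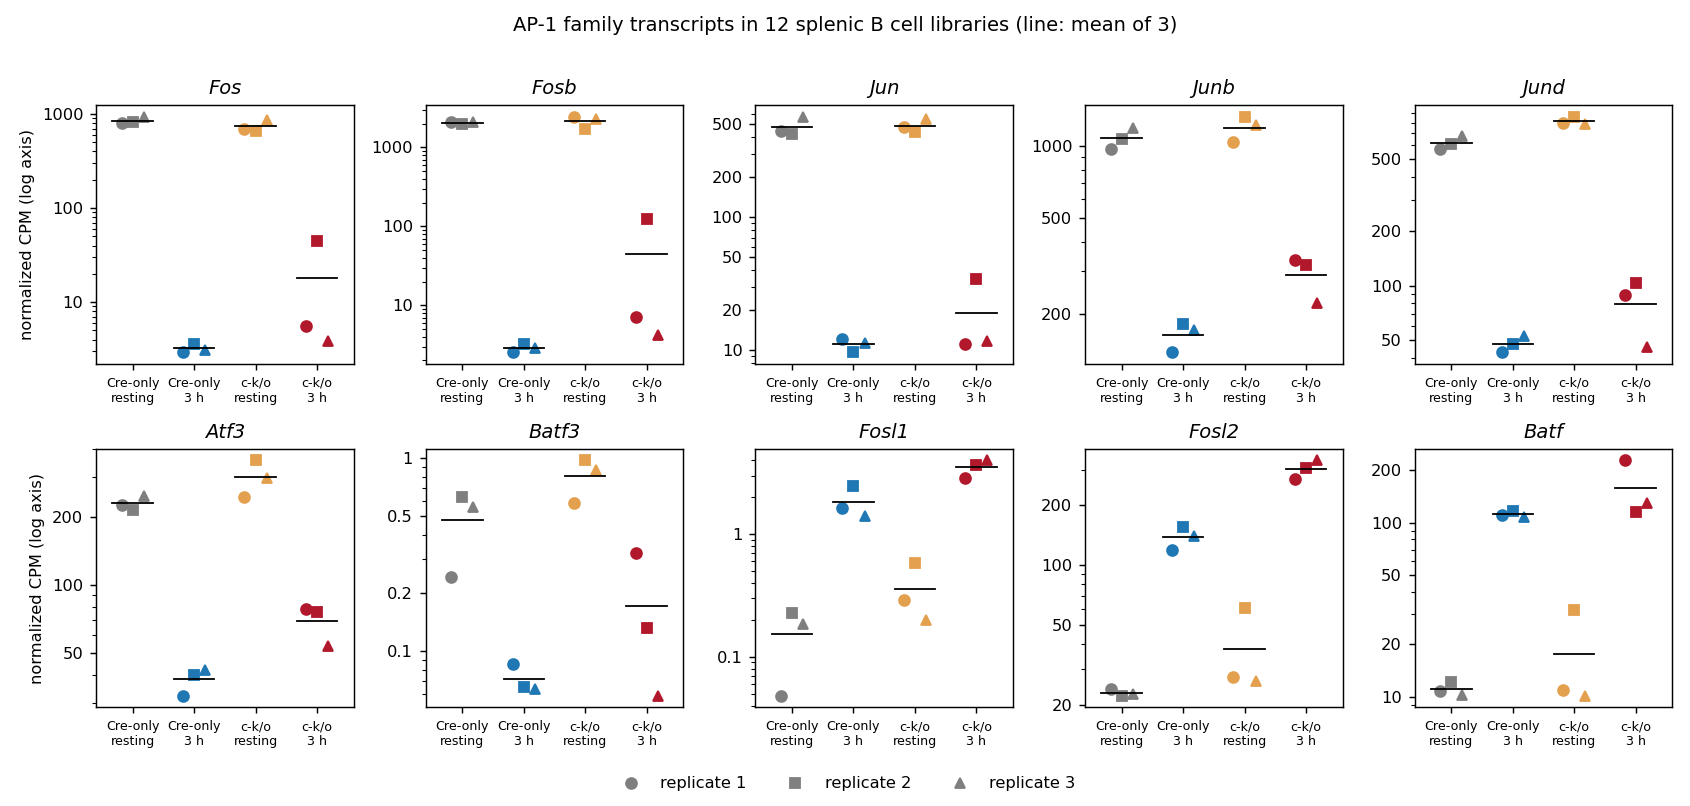
Normalized CPM (log axis, scaled per panel) of the 10 AP-1 genes in each of the 12 libraries, with a symbol for each replicate number and a line at the mean of 3. Fos, Fosb, Jun, Junb, Jund, Atf3 and Batf3 were lower and Fosl1, Fosl2 and Batf higher at 3 h in each genotype, and the Runx1 c-k/o replicate 2 libraries (squares) lay apart for Fos, Fosb and Jun at 3 h and for Fosl2 and Batf at rest.

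The comparison of 3-h with resting cells asked how the family changed with activation in each genotype, and it shares its libraries with the genotype comparisons that follow. In Cre-only cells 10 of 10 members passed an adjusted p of 0.05 (quasi-likelihood F test of edgeR, Benjamini-Hochberg adjusted over all genes tested), 7 lower and 3 higher, where 75% of all tested genes passed. The members' median size of change, whatever its direction, was 3.45 on the log2 scale against 0.90 over all genes tested. The same 7 were lower and the same 3 higher in Runx1 c-k/o cells, where 74.3% of genes passed, with a median size of 3.22 against 0.88. The 3 higher members were Fosl1, Fosl2 and Batf, where 38.6% of all genes in Cre-only cells and 37.7% in Runx1 c-k/o cells were higher.

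Fosb, which encodes a FOS factor with long and truncated forms, fell most. It was at 2111, 1952 and 2105 normalized CPM in resting Cre-only libraries and at 2.55, 3.20 and 2.87 at 3 h. The log2 fold change was -9.49 (SE 1.22, adjusted p = 1.60e-05 by edgeR), the largest fall of the 13538 genes. In Runx1 c-k/o cells Fosb was at 2427, 1696 and 2317 at rest and 7.21, 123 and 4.24 at 3 h, so replicate 2 alone was above 10. There the log2 fold change was -5.59 (SE 1.00, adjusted p = 0.000258), and -8.69 without both replicate 2 libraries. With 1 factor of unwanted variation (RUVs) this change was -3.26 by edgeR (adjusted p = 0.0693) and -3.22 by DESeq2 (adjusted p = 0.0574), so it no longer passed.

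Fos, the founding FOS gene, followed the same pattern. Its 3 Cre-only libraries were at 802, 814 and 932 at rest and at 2.93, 3.59 and 3.12 at 3 h. This was a log2 fold change of -8.05 (SE 0.84, adjusted p = 2.71e-06 by edgeR) and the rank 3 fall of all genes. Runx1 c-k/o libraries were at 692, 666 and 859 at rest and at 5.60, 45.1 and 3.89 at 3 h, a log2 fold change of -5.35 (SE 0.72, adjusted p = 2.64e-05), or -7.35 without both replicate 2 libraries. The resting and 3-h values of Fos and Fosb did not overlap in either genotype.

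Among the JUN factors, Jun, the main partner of FOS, fell from 445, 424 and 568 normalized CPM to 12.3, 9.67 and 11.3 in Cre-only cells, a log2 fold change of -5.43 (SE 0.39, adjusted p = 1.27e-07 by edgeR). Its Runx1 c-k/o libraries went from 477, 437 and 552 to 11.2, 34.2 and 11.8, by -4.68 (SE 0.37), or -5.47 without both replicate 2 libraries. Jund, which is expressed in most resting cells, went from 569, 607 and 678 to 42.9, 47.8 and 53.1 in Cre-only cells, by -3.69 (SE 0.25). Its Runx1 c-k/o libraries went from 799, 859 and 789 to 88.6, 104 and 45.8, by -3.36 (SE 0.24). Junb, a weaker activator that can oppose Jun, fell less. Its Cre-only libraries went from 977, 1076 and 1194 to 138, 181 and 170.0, by -2.73 (SE 0.18), and its Runx1 c-k/o libraries from 1041, 1327 and 1228 to 333, 318 and 221, by -2.04 (SE 0.17). Jun, Junb and Jund have 1 exon each. Another annotated gene on the opposite strand overlaps Jun (BC042782), Jund (Gm11175) and Fosl1 (Ccdc85b), and since the strand setting of the counting is not stated, reads of these neighbours could not be told apart from those of the members.

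Atf3, a stress-induced factor that can repress its targets, fell from 226, 215 and 249 to 32.4, 40.1 and 42.3 in Cre-only cells, by -2.59 (SE 0.18). Its Runx1 c-k/o libraries fell from 246, 356 and 297 to 78.6, 76.3 and 53.7, by -2.11 (SE 0.17). Batf3, required for a dendritic cell lineage, was close to the floor. Its 3 Cre-only libraries held 5, 11 and 9 counts at rest and 2, 1 and 1 at 3 h, and summed counts scaled to library size were 6.22 times higher at rest (95% interval 2.15 to 24.6, counting error only). Its Runx1 c-k/o libraries held 10, 15 and 13 counts at rest and 5, 2 and 1 at 3 h, 4.76 times higher at rest (2.19 to 11.8). Both differences passed the edgeR test, with adjusted p = 0.00311 and 0.00208.

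Batf, Fosl2 and Fosl1 rose. Batf was at 10.8, 12.1 and 10.2 normalized CPM in resting Cre-only libraries and at 110.4, 117 and 107 at 3 h, a log2 fold change of 3.33 (SE 0.39, adjusted p = 7.98e-06 by edgeR). In Runx1 c-k/o cells it was at 10.9, 31.5 and 10.2 at rest and 227, 116 and 129 at 3 h, a change of 3.17 (SE 0.39), or 4.09 without both replicate 2 libraries. Replicate 1 was the high library of Batf at 3 h and replicate 2 at rest. Fosl2, also called Fra-2, a FOS factor without the transactivation domain of Fos, was at 24, 22.1 and 22.6 at rest and 119, 155 and 140.0 at 3 h in Cre-only cells, a change of 2.59 (SE 0.27). In Runx1 c-k/o cells Fosl2 was at 27.4, 60.7 and 26.2 at rest and 269.8, 309 and 335 at 3 h, a change of 3.00 (SE 0.27), or 3.51 without both replicate 2 libraries. Fosl1, its close relative Fra-1, had 8 counts over the 3 resting Cre-only libraries and 98 at 3 h, 12.3 times higher after scaling (95% interval 6.01 to 29.3, counting error only). Its 17 resting and 169 3-h counts over the Runx1 c-k/o libraries were 9.91 times apart after scaling (6.01 to 17.4).

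At 3 h, Runx1 c-k/o replicate 2 exceeded the mean of replicates 1 and 3 by 5.21% of their resting mean for Fos, 4.93% for Fosb and 4.40% for Jun. At rest, replicate 2 exceeded the mean of replicates 1 and 3 by 11.2% of their 3-h mean for Fosl2 and 11.8% for Batf. For Jund, Junb and Atf3 the replicates 1 and 3 were farther from each other at 3 h than replicate 2 was from their mean. Resting Fosl1 rested on too few counts. No excess is therefore given for these genes, which does not show that replicate 2 left them untouched. The origin of these excesses was not tested.

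The make-up of each family changed with activation. In Cre-only cells the summed FOS level fell from 913 ± 45.6 (SD, n = 3) to 26.8 ± 3.57 CPM per kb and the JUN level from 964 ± 101 to 110 ± 13.4. The summed BATF and ATF3 level was 128 ± 7.76 at rest and 136 ± 5.57 at 3 h. In Runx1 c-k/o cells these sums were 893 ± 129 and 73.7 ± 29.1 for FOS, 1100 ± 86.3 and 195 ± 45.5 for JUN, and 171 ± 39.4 and 200 ± 67.6 for BATF and ATF3. Fosl2 made up 0.451%, 0.435% and 0.401% of the summed FOS family level per kb in resting Cre-only libraries and 87.5%, 87.3% and 89.1% at 3 h, whereas Fosb went from 60.1% ± 1.82 (SD, n = 3) to 2.86% ± 0.0592 and Fos from 39.5% ± 1.84 to 5.12% ± 0.232. In Runx1 c-k/o cells Fosl2 went from 0.494%, 1.39% and 0.453% to 88.5%, 49.4% and 91.8%, so that the 3-h replicate 2 library was the low one. Batf rose from 9.09% ± 1.30 to 85.8% ± 1.78 of the summed BATF and ATF3 level in Cre-only cells, while the share of Atf3 fell. In Runx1 c-k/o cells the share of Batf rose from 10.1% ± 4.68 to 81.6% ± 5.10. Junb remained the largest of the JUN factors, at 62.1% ± 1.07 and 81.7% ± 1.77 of the JUN level in Cre-only cells, where Runx1 c-k/o cells had 60.2% ± 2.67 and 83.2% ± 3.71. The resting and 3-h shares of Fosl2, Fosb, Fos, Batf, Atf3 and Junb did not overlap in either genotype, which with 3 libraries against 3 gives the smallest p that the two-sided exact permutation test allows, 0.1.

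**Figure D3:**
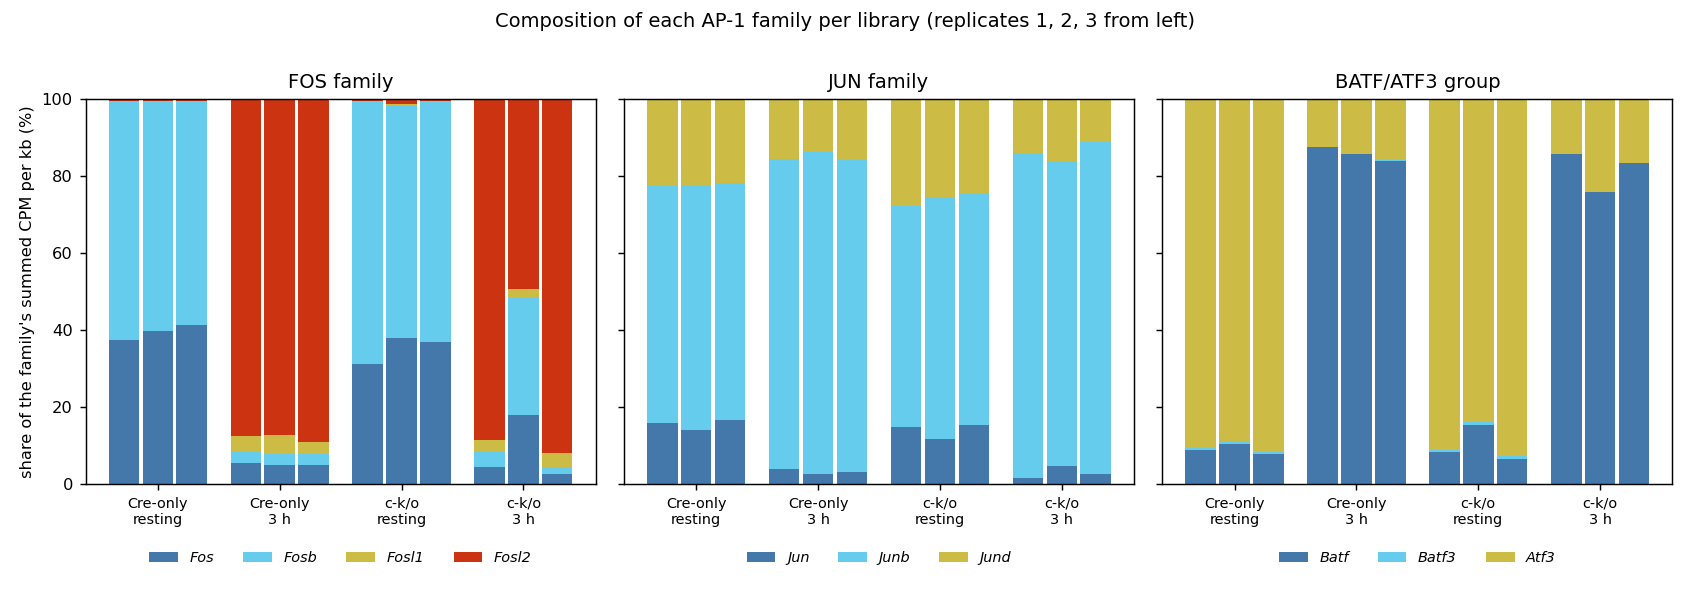
Share (%) of each gene in the summed CPM per kb of its family in each of the 12 libraries, stacked to 100%. At 3 h Fosl2 held the largest share of the FOS family in place of Fosb, and Batf that of its group in place of Atf3. Junb held the largest share of the JUN family throughout, and the 3-h Runx1 c-k/o replicate 2 library had a Fosl2 share of 49.4%.

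The comparison of genotypes at rest asked whether loss of RUNX1 changed the family before activation. None of the 10 members passed the threshold (0 of 10, against 1.49% of all genes tested, edgeR), and 0 of the 8 with an adjusted p passed by the DESeq2 Wald test, which gave none for Fos and Fosb. At an unadjusted p under 0.05 there were 2, Fosl2 and Atf3, where 11.1% of all genes tested were under it. The estimate was above 0 for 9 of 10, with a median of 0.39 on the log2 scale against 0.03 over all genes tested. Without resting Runx1 c-k/o replicate 2 it was above 0 for 8 of 10, with a median of 0.21. The difference of Fosl2 (22.9 ± 0.970 against 38.1 ± 19.6 normalized CPM, log2 fold change 0.73, adjusted p = 0.286) and that of Batf (11 ± 0.976 against 17.5 ± 12.1, 0.66, adjusted p = 0.585) rested on replicate 2, and without both replicate 2 libraries they were 0.23 and -0.07. All 3 Runx1 c-k/o libraries lay above the 3 Cre-only libraries for Fosl2 and Jund, 2 of 10 where 12% of all genes did. Jund was at 569, 607 and 678 in the Cre-only libraries against 799, 859 and 789 for Runx1 c-k/o, a log2 fold change of 0.40 (SE 0.22, adjusted p = 0.551), or 0.36 without both replicate 2 libraries.

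After 3 h the same comparison asked how the family differed between activated cells of the 2 genotypes. All 10 estimates were above 0, with a median of 0.90 on the log2 scale against 0.01 over all genes tested. Without 3-h Runx1 c-k/o replicate 2 all 10 were still above 0, with a median of 0.78. Atf3, Junb and Fosl2 passed the threshold, so 3 of 10 were higher and 0 of 10 lower in Runx1 c-k/o cells, where 1.47% of all genes were higher (2.77% in either direction). The members were chosen with earlier results of these data known, so their shares are set beside those of all genes as a description only. The 3 Runx1 c-k/o libraries all lay above the 3 Cre-only libraries for 6 of 10 members (Fos, Fosb, Fosl1, Fosl2, Junb and Atf3), where 9.50% of all genes did. The separation was narrow for Fos, at 3.89 against 3.59 normalized CPM in the nearest libraries (66 against 55 counts). For Fosl1 it was 2.90 against 2.48 (45 against 38 counts). Summed plasma cell markers also differed between these groups, at 286 to 348 normalized CPM in Cre-only and 398 to 439 in Runx1 c-k/o libraries with no overlap. Within this sum the group means of Xbp1 (241 against 327) and Igj (64.0 against 87.6) were higher in Runx1 c-k/o cells. Those of Sdc1 (3.98 against 3.41) and Prdm1 (7.45 against 6.70) were lower. Xbp1 also rose with activation in both genotypes and did not pass the threshold by genotype at 3 h (adjusted p = 0.226 by edgeR). Red cell markers were at 12.3 to 136 and 115 to 203, and platelet markers at 3.11 to 3.19 and 3.47 to 4.27. The part of these cells in the genotype differences was not tested.

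Fosl2 showed the largest difference of the 3. Its Cre-only libraries were at 119, 155 and 140.0 normalized CPM and its Runx1 c-k/o libraries at 269.8, 309 and 335, a 2.21-fold higher mean (log2 fold change 1.14, SE 0.25, adjusted p = 0.0313 by edgeR). The groups were far apart, and the estimate was 1.13 without both replicate 2 libraries (adjusted p = 0.000692). Atf3 was at 32.4, 40.1 and 42.3 against 78.6, 76.3 and 53.7, a 1.82-fold higher mean (log2 fold change 0.86, SE 0.17, adjusted p = 0.0174), or 0.79 without both replicate 2 libraries (adjusted p = 0.0306). Junb was at 138, 181 and 170.0 against 333, 318 and 221, a 1.78-fold higher mean (0.84, SE 0.17, adjusted p = 0.0189), or 0.77 without them (adjusted p = 0.0467). Replicate 3 was the lowest Runx1 c-k/o library for Atf3 and Junb and the highest for Fosl2. All 3 calls were lost without 3-h Cre-only replicate 1 (adjusted p = 0.0963 for Atf3, 0.102 for Junb and 0.153 for Fosl2, edgeR) and without 3-h Runx1 c-k/o replicate 2 alone (0.0611, 0.0647 and 0.0739). Without 3-h Cre-only replicate 2 Junb alone kept its call, without replicate 3 Atf3 alone did, and without 3-h Runx1 c-k/o replicate 3 Atf3 and Junb kept theirs.

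Fosb and Fos differed mainly through replicate 2. Fosb was at 2.55, 3.20 and 2.87 in the Cre-only libraries against 7.21, 123 and 4.24 for Runx1 c-k/o, a log2 fold change of 3.97 (SE 1.02, adjusted p = 0.0674 by edgeR). Without 3-h Runx1 c-k/o replicate 2 the difference was 1.00 and did not pass the threshold (adjusted p = 0.0722). Without both replicate 2 libraries, a setting chosen after seeing the data, it was also 1.00 and passed (adjusted p = 0.0336). Fos was at 2.93, 3.59 and 3.12 against 5.60, 45.1 and 3.89, a difference of 2.50 (SE 0.74, adjusted p = 0.108), or 0.56 without them (adjusted p = 0.159). Fos and Fosb levels at 3 h were thus under 8 normalized CPM in each library other than 3-h Runx1 c-k/o replicate 2.

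The other members did not pass. Jund was at 42.9, 47.8 and 53.1 against 88.6, 104 and 45.8, with replicate 3 inside the Cre-only range (log2 fold change 0.73, SE 0.23, adjusted p = 0.128). DESeq2 called it (adjusted p = 0.0298), and without 3-h Runx1 c-k/o replicate 3 edgeR gave 1.00 (adjusted p = 0.00154). Jun gave 0.78 (adjusted p = 0.299), and 0.05 without both replicate 2 libraries. Batf gave 0.50 (adjusted p = 0.474), with replicate 1 at 227 and the other Runx1 c-k/o libraries at 116 and 129, and 0.16 without replicate 1 (adjusted p = 0.934). Fosl1 had 98 counts over 3 Cre-only and 169 over 3 Runx1 c-k/o libraries, 1.96 times higher after scaling (95% interval 1.52 to 2.54, counting error only), with adjusted p = 0.133 by edgeR. Batf3 had 4 against 8 counts, 2.27 times higher (0.608 to 10.3), a difference not detectable at this depth.

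**Figure D4:**
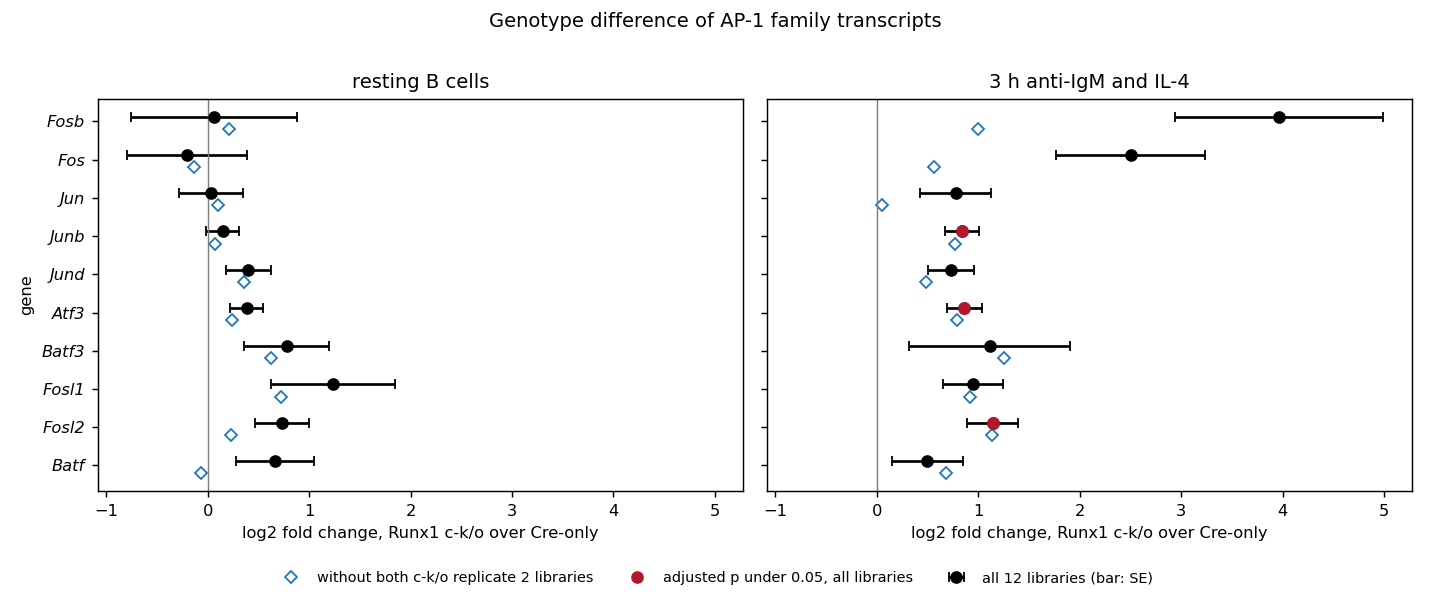
Log2 fold change of Runx1 c-k/o over Cre-only cells for the 10 AP-1 genes in resting (left) and 3-h cells (right), as circles with bars of 1 SE from all 12 libraries, red where the adjusted p was under 0.05, and as open diamonds without both Runx1 c-k/o replicate 2 libraries. At 3 h the diamonds of Fosl2 (1.13), Atf3 (0.79) and Junb (0.77) lay near the circles, while those of Fosb (1.00) and Fos (0.56) lay far below theirs.

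Whether the genotype difference itself changed between rest and 3 h was tested as an interaction, which equals the difference between the 2 activation changes. No member passed (0 of 10, against 0.0813% of all genes tested, edgeR), and 3 had an unadjusted p under 0.05 (Fosb, Fos and Junb), where 5.07% of all genes tested did. The interaction was 0.69 for Junb (SE 0.23, adjusted p = 0.697), 0.41 for Fosl2 (SE 0.36) and 0.48 for Atf3 (SE 0.24). So in this fit no member was shown to differ more between genotypes at 3 h than at rest. DESeq2 with 1 RUVs factor called Junb (adjusted p = 0.0195).

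Genes around the family were taken from 5 lists. Of all genes tested, 75% passed the threshold with activation in Cre-only cells and 74.3% in Runx1 c-k/o cells (edgeR). By genotype, 1.49% of all genes passed at rest and 2.77% at 3 h. Of 31 tested other bZIP factors, 18 were higher and 7 lower with activation in Cre-only cells against 18 higher and 5 lower for Runx1 c-k/o, and 0 differed by genotype at either time. Largest in size in Cre-only cells were the fall of Maf (-5.48) and the rises of Nfil3 (3.43) and Atf5 (2.62). Of 20 kinases of the MAPK cascades, which phosphorylate FOS and JUN proteins and induce their genes, 7 were higher and 9 lower with activation in Cre-only cells, led by Map2k6 (-4.89), Rps6ka5 (-3.36) and Mapk14, p38 alpha (-2.04). At 3 h Map3k8, the kinase TPL2, was lower in Runx1 c-k/o cells (log2 fold change -0.59, adjusted p = 0.00582 by edgeR) and Rps6ka1, the kinase RSK1, was higher (0.38, adjusted p = 0.0366, and 0.0589 without 3-h Runx1 c-k/o replicate 2), 2 of 20. Of 11 DNA-binding partners, 4 were higher and 6 lower with activation in Cre-only cells, among them Ets1 (-2.77), Nfatc2 (-2.34) and Spi1 (-1.62). Only Runx1 itself differed by genotype, at 3 h (0.80, adjusted p = 0.00769 by edgeR). Its counts are of the whole gene, so they measure neither the deletion of exon 4 nor RUNX1 protein.

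Of 18 tested other immediate early genes, 6 were higher and 9 lower with activation in Cre-only cells. The falls of Klf4 (-7.45), Dusp1 (-6.33) and Klf2 (-5.71) were the largest of this list. By genotype, Egr2 was higher at rest in Runx1 c-k/o cells (44.6 against 109 normalized CPM, log2 fold change 1.29, adjusted p = 0.0222 by edgeR, and 0.80 without resting Runx1 c-k/o replicate 2, adjusted p = 0.00169), and Nr4a1 (0.69, adjusted p = 0.0303, and 0.0649 without 3-h Runx1 c-k/o replicate 2) and Nr4a2 (1.49, adjusted p = 7.17e-05) were higher at 3 h. The median genotype difference at 3 h was 0.39 over this list, 0.08 over the other bZIP factors and 0.01 over all genes tested, where the AP-1 median was 0.90. These medians are from all 12 libraries, and the AP-1 median was 0.78 without 3-h Runx1 c-k/o replicate 2. The medians of the lists are not given without that library, so 0.78 cannot be set beside 0.39. Of 8 heat shock genes, which tissue dissociation is known to induce along with Fos and Jun, 3 were higher and 3 lower with activation, Hspa1a (-5.85), Hspa1b (-5.79) and Dnajb1 (-1.62) being lower, and 0 differed by genotype. The part of cell isolation in the resting levels of the AP-1 genes was not tested.

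Across the 12 libraries, which fall into resting and 3-h sets, the genes with a pattern most like each member followed that division, and the correlations of log2 normalized CPM describe these libraries only. Klf4 was the most like both Fos (Pearson's r = 0.998) and Fosb (0.997). Jun was closest to Hist1h1c and Nfam1 (both 0.999), Jund to Snx20 (0.998), and Junb to Zfp36l2 (0.998). Plbd1 was near both Junb (0.995) and Atf3 (0.996). Batf was closest to Eif6 and Fbl (both 0.999), Fosl2 to Pacsin2 (0.992) and Cd300lf (0.991), and Fosl1 to Ssfa2 and Mapre2 (both 0.986). Between members, r was 0.998 for Fos with Fosb, 0.996 for Junb with Atf3 and 0.987 for Fosl1 with Fosl2.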

How the data were processed

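Resting and activated B cells from mouse spleen were profiled by poly(A) RNA sequencing. Per the labels, ERCC spike-in RNA was added and stranded libraries were made. The submitters' processing notes name CASAVA 1.8.4, TopHat2 2.0.11, featureCounts and the builds mm9 and NCBIM37. The authors deposited raw read counts per Ensembl gene for the 12 libraries, without normalization and with 0 spike-in rows, and the strand setting of their counting and the handling of multiply aligned reads are not given in the sources used here. The labels gave each library's group, and 37205 of the 37991 identifiers had a name in the GENCODE annotation of mm9.

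From these counts, edgeR 4.0.16 (R 4.3.3) filtered genes with filterByExpr (minimum count 10), normalized by TMM (factors 0.886 to 1.07) and fitted a robust quasi-likelihood model with 1 term for each of the 4 groups over all 12 libraries. Adjusted p-values are Benjamini-Hochberg values over the 13538 genes tested, with a threshold of 0.05. Standard errors are those of the fitted log2 fold change. Normalized CPM are counts over the TMM-scaled library size. Levels per kb divide it by the union of annotated exons. Family shares were compared by two-sided exact permutation tests (40 comparisons). Ratios of summed counts of Batf3 and Fosl1 carry exact 95% intervals. Tables were made with Python 3.11.15, pandas 2.3.3 and scipy 1.17.1.

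Alternatives were size factors of DESeq2 1.42.0 or its Wald test in place of those of edgeR, no filter on counts or a minimum of 10 counts in each library, a fit with 1 RUVs factor (built from replicate differences after the published method) by either tool, a block on replicate number, a fit to the 2 groups of a comparison alone, and leaving out each library. Leaving out both Runx1 c-k/o replicate 2 libraries was added after seeing the data. The numbers paired the Cre-only resting and 3-h libraries, whose same-numbered deviations from the group means correlated at 0.175 to 0.309 across genes, and not those of other groups.

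The 10 members, the 5 lists of neighbouring genes (93 genes) and the cell type markers were chosen with earlier results of these data known; 1 gene of these lists and 1 marker are not reported here. List genes named in the text are those past the threshold in a genotype comparison and the 3 with the largest activation change in Cre-only cells in each list. For each member the genes with the highest Pearson's r of log2(normalized CPM + 0.5) over the 12 libraries were named, at most 2.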

Additional observations from a re-analysis of the deposited data

Results flagged for a closer look

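Nr4a2, an orphan nuclear receptor gene among the other immediate early genes, had a genotype difference that changed between rest and 3 h, with an interaction of 1.42 on the log2 scale (SE 0.17, adjusted p = 0.00814 by edgeR's test across all genes). Its mean level fell from 50.8 to 16.5 normalized CPM in Cre-only cells and was at 53.1 and 46.2 in Runx1 c-k/o cells. Rps6ka1, the kinase RSK1, had a log2 fold change with activation of -0.19 in Cre-only cells, which did not pass the threshold (adjusted p = 0.0562 by edgeR), and of 0.27 in Runx1 c-k/o cells, which passed (adjusted p = 0.0133). Its 3 resting and 3 3-h libraries did not overlap in either genotype. Its interaction of 0.46 missed the threshold (adjusted p = 0.346 by edgeR), so a difference between the genotypes was not shown. No separate test of single libraries as outliers was made, since no group held 4 or more. The DESeq2 Wald test gave no adjusted p for Fos and Fosb, whose 3-h Runx1 c-k/o replicate 2 library lay apart.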

How the results depend on the processing

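All 10 activation calls kept their direction under each alternative, and all but that of Fosb in Runx1 c-k/o cells (lost with 1 RUVs factor) kept their call wherever the tool gave an adjusted p. The RUVs factor largely followed rest against 3 h, so these fits cannot cleanly separate it from activation. With that factor the Cre-only log2 changes moved from -9.49 to -6.59 by edgeR and -6.51 by DESeq2 for Fosb, from -8.05 to -6.13 and -6.03 for Fos, and from 3.33 to 1.92 and 1.70 for Batf, and those in Runx1 c-k/o cells from -5.35 to -3.71 and -3.64 for Fos and from 3.17 to 1.77 and 1.63 for Batf. Jun moved from -5.43 to -4.30 and -4.37 in Cre-only cells and from -4.68 to -3.63 and -3.64 in Runx1 c-k/o cells, and Batf3, at a few counts, from -2.54 to -3.87 and -4.27 and from -2.21 to -3.68 and -3.99. At 3 h, 3 members were called between genotypes. This count was 5 by DESeq2 with 1 RUVs factor, 1 with only the 2 groups compared (Fosl2) and 0 to 5 with each library left out, and 4 without both Runx1 c-k/o replicate 2 libraries (Atf3, Fosb, Fosl2 and Junb). Without 3-h Runx1 c-k/o replicate 3 the 5 were Atf3, Fos, Fosb, Junb and Jund. Of the 15 alternatives, 11 kept the call of Atf3, 11 that of Junb and 8 that of Fosl2. For the interaction, 0 members became 1 (Junb) by DESeq2 with 1 RUVs factor. The call of Fosl2 was lost with no filter on low counts (adjusted p = 0.0732, edgeR) and with 1 RUVs factor in edgeR (0.0593), and those of Atf3 (0.0682) and Junb (0.0847) with only the 2 groups compared. The cause of these shifts was not tested. Over all genes, the 202 calls between genotypes at rest became 378 by DESeq2, 509 by edgeR with 1 RUVs factor, 596 by DESeq2 with it, and 81 to 140 with each library left out. The 375 calls at 3 h became 707, 1059 and 1283 by the same tools, 158 with only the 2 groups compared, and 180 to 617 with each library left out. The 11 interaction calls became 79, 134 and 250 by these tools, 4 with the replicate block within genotype, and 4 to 31 with each library left out. With the replicate number as a block over all libraries, 3 members were still called at 3 h (Atf3, Fosl2 and Junb) and 0 at rest, and the block changed no activation call of a member. Same-numbered libraries of Runx1 c-k/o cells at rest and 3 h correlated at -0.324 to 0.330 and none of the 3 resting libraries correlated best with its own number. Lengths of the longest transcript gave Fosb 57.4% of the FOS family in resting Cre-only cells. Without Jund, Junb held 79.99% and 96.2% of the JUN family in resting and 3-h Cre-only cells, with 81.1% and 96.5% for Runx1 c-k/o. Depth limits Batf3 and resting Fosl1, which lay near the floor of 3 counts.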
